A study of Mus musculus with 9 samples.

Results

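Mouse chromosome 4 was read as an ordered row of genes in 3 kinds of cells: adult cardiac fibroblasts, cells labelled as dedifferentiated cardiac fibroblasts, and embryonic stem (ES) cells. The array table held 35557 rows, of which 21789 named 1 gene symbol and 1312 of those belonged to a gene on chromosome 4. A row was kept where its mean over the 9 arrays was above 5.42 on the log2 scale, the median over all rows with 1 symbol. That left 744 rows, here called transcript clusters, for 654 genes, and 568 rows below the cutoff. Of the chromosome 4 rows 56.7% were kept, against 50.1% on the other autosomes, which kept 9800 rows. Just above the cutoff were Slc30a2 at 5.419 and Glis1 at 5.424, and just below it a row of Ccl19 at 5.412 and Kif24 at 5.404. The order of the genes followed their start positions, and 653 of the 654 could be placed on the assembled chromosome.

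All 3 groups had 3 arrays each and carried the label C57BL/6, with no transgene, allele, age or sex given. The labels describe the first group as adult mouse cardiac fibroblasts, although its source field also mentions ES cells, so the sample titles were followed. The second group is labelled as dedifferentiated cardiac fibroblasts and the remaining group as C57 ES cells, and no label says how many ES lines were used, how the dedifferentiation was done or how long it lasted. No label states that the arrays of a group hold different animals or different cultures, so each p-value speaks only for the scatter among these arrays, part or all of which may be technical, and 3 arrays per group limit the precision. The levels of 10 fibroblast markers averaged 10.87 to 10.99 on the fibroblast arrays, 5.37 to 5.45 on the dedifferentiated arrays and at most 5.12 on the ES arrays. The levels of 10 ES cell markers averaged 3.97 to 4.24, 10.30 to 10.35 and 10.28 to 10.48 in the same order. Group means above the cutoff were found for 10 fibroblast markers on the fibroblast arrays, 6 on the dedifferentiated and 4 on the ES arrays, and for 1, 10 and 10 of the ES markers. Macrophage markers (8 genes) averaged 5.81 to 6.02 on fibroblast arrays and 4.29 to 4.49 on the others, and 6 of the 8 had a fibroblast mean above the cutoff. Averages of 6 endothelial and 6 cardiomyocyte markers stayed between 4.45 and 5.13 on every array. The endothelial averages were 4.48 to 4.74 on fibroblast, 5.06 to 5.13 on dedifferentiated and 4.71 to 4.77 on ES arrays. Of these 6 markers, 0, 3 and 2 had a group mean above the cutoff in that order. For the cardiomyocyte markers it was 1, 0 and 0. Xist, the RNA of the inactive X chromosome, was at 7.24 to 7.39 on fibroblast arrays and at 2.78 to 3.49 on the others, and the Y-linked Eif2s3y was at 3.45 to 3.69 on fibroblast arrays and at 7.47 to 8.18 on the others. By Xist and Eif2s3y, the fibroblast arrays had a female pattern and the dedifferentiated and ES arrays a male pattern. Comparisons with fibroblasts thus also differ in sex. The fibroblasts read here cannot be taken as the starting cells of the dedifferentiated ones. The part of the macrophage markers and of the sex-linked difference in any value below was not tested. In bulk samples, fewer cells of a type and less RNA per cell cannot be told apart.

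A chromosome is a physical unit rather than a pathway. Most of its genes are switched by their own promoters and enhancers, but neighbours share a DNA copy number, a replication time and often a chromatin environment, so that a stretch of unrelated genes can move by a small common amount. Cultured ES cells are known at times to gain or lose chromosomes or pieces of them. DNA and chromatin were not measured in these samples. Mouse chromosome 4 holds several genes known from pluripotent cells, among them Klf4, a reprogramming factor, Lin28a, an RNA-binding protein that blocks the maturation of certain miRNAs, L1td1, an RNA-binding protein of ES cells, and Foxd3, a forkhead factor of the early embryo.

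A continuous stretch of chromosome 4, from Dcaf12 to Foxj3, was found by a least-squares split of the dedifferentiated minus ES differences, described after the sequences. Its ends are marked by the promoters of Ubap2, a ubiquitin-associated protein and the last gene before it, Dcaf12, a substrate receptor of a ubiquitin ligase, Foxj3, a forkhead transcription factor, and Scmh1, a Polycomb group protein and the first gene after it. Inside it, Klf4 and Stil, a centriole duplication protein, were higher in ES cells, and Tnc, the matrix glycoprotein tenascin C, was the gene with the largest difference the other way. The RefSeq promoters (GRCm38.p6) of these 7 genes run from 250 bases before the transcription start to 50 after it, 5′ to 3′ on the gene's strand. They are shown because they border the stretch or belong to genes whose values follow. Capitals mark matches on either strand to the GC box GGGCGG, the CCAAT box CCAAT and the TATA box TATAAA; matches may overlap.

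Ubap2 lies on the minus strand at chr4:41275086-41275385, Dcaf12 on the minus strand at chr4:41314852-41315151, Foxj3 on the plus strand at chr4:119539411-119539710 and Scmh1 on the plus strand at chr4:120405098-120405397.
Ubap2: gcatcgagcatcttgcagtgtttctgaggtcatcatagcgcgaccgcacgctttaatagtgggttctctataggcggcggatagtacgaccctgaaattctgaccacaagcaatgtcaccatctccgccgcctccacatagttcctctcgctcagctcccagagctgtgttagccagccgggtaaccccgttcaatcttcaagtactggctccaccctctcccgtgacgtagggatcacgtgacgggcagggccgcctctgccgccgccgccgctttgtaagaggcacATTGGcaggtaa
Dcaf12: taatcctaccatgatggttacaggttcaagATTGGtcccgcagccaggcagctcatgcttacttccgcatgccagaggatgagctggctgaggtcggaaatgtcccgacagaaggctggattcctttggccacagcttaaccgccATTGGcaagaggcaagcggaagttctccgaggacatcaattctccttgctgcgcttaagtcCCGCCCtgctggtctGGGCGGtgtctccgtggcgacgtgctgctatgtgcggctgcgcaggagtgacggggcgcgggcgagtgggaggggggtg
Foxj3: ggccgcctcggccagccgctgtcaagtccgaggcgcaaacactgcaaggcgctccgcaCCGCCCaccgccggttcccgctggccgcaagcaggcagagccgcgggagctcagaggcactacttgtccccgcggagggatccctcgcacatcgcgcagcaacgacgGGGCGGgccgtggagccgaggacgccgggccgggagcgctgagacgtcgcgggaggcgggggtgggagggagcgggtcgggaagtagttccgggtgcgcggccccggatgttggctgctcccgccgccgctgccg
Scmh1: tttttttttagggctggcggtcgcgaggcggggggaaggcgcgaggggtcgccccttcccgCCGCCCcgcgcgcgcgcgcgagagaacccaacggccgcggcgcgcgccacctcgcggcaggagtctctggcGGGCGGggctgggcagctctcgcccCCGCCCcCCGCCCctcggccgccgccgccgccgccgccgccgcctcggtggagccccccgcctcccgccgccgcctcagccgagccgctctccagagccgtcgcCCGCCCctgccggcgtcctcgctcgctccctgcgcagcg

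Klf4 lies on the minus strand at chr4:55532426-55532725, Stil on the plus strand at chr4:114999868-115000167 and Tnc on the minus strand at chr4:64046966-64047265.
Klf4: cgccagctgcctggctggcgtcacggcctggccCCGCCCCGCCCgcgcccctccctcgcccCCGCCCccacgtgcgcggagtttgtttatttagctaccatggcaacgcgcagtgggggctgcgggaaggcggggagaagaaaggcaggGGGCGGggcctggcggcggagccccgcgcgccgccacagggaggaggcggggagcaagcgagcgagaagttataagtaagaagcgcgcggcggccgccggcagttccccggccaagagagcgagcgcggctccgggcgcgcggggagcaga
Stil: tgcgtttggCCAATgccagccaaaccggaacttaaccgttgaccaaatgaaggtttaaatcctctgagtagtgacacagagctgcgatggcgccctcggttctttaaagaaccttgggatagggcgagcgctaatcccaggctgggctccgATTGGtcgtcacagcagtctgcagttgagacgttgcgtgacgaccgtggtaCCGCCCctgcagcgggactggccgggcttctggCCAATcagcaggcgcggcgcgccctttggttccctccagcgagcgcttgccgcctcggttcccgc
Tnc: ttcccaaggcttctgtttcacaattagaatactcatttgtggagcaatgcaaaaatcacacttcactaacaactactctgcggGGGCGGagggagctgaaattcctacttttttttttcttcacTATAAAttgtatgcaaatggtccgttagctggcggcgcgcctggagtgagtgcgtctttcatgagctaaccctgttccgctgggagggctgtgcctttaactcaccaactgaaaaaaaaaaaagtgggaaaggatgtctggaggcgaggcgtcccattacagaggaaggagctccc

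Of these 7 promoters, that of Scmh1 had the highest G+C content, 81.3%, with 5 GC boxes and 54 CpG sites. Klf4 had 74.3% G+C, 40 CpG sites and 4 GC boxes, and Tnc had 47.3%, 10 CpG sites, 1 GC box and a TATA box. Stil had 3 CCAAT boxes. A promoter was listed for 242 of the 268 genes of the stretch and for 305 of the 385 placed member genes outside it. The median G+C content was 60.5% in the stretch, 63.0% in the rest of the chromosome and 62.0% over 7194 member genes of the other autosomes. A GC box was found in 71.5%, 72.5% and 68.9% of them, a CCAAT box in 40.9%, 39.0% and 38.2%, and a TATA box in 9.1%, 5.9% and 6.3%. Over all 32851 listed mouse promoters of that length the shares were 35.7%, 37.4% and 13.6%. These are matches of letters in a window, not binding sites.

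Over the whole chromosome, ES cells were higher than both other groups more often than elsewhere in the genome, and the dedifferentiated cells were lower than ES cells. A transcript cluster was called where limma's adjusted p was under 0.05 and the difference was at least 1 log2 unit, and was also counted at an adjusted p under 0.05 with any size. In ES cells against fibroblasts, 184 of the 744 were called higher (24.7%) and 77 lower (10.3%), where 8.97% and 9.99% of all 21789 tested rows were called. On the other autosomes, under the same level cutoff, 11.5 to 19% were called higher per chromosome and 11 to 20.3% lower. With any size, 396 (53.2%) were higher and 194 (26.1%) lower, against 42.1% and 33.2% on the other autosomes under that cutoff. Over all rows, dim ones included, the shares were 26.7% and 22.2%. The median ES minus fibroblast difference was 0.34, outside the range of -0.02 (chromosome 16) to 0.26 (chromosome 17) of the other autosomes, whose joint median was 0.11.

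In dedifferentiated cells against fibroblasts, the median of chromosome 4 lay within the range of the other autosomes, while its share called higher, with all Chd7 clusters counted, was above theirs. Of the 744 transcript clusters, 149 were called higher (20%) and 95 lower (12.8%). Over all rows tested these shares were 9.01% and 9.66%. Per other autosome under the same level cutoff they were 11.1 to 18.5% higher and 10.1 to 18.8% lower. With any size 339 (45.6%) were higher and 232 (31.2%) lower. These shares lay near the 42.2% and 31.8% of the other autosomes under that cutoff. Over all rows, dim ones included, they were 25.8% and 21.7%. The median difference was 0.14, beside 0.11 over the other autosomes and a range of 0.01 (chromosome 16) to 0.27 (chromosome 11). The 28 clusters of a single gene, the chromatin remodeller Chd7, are in these counts, and with 1 cluster per gene the called numbers were 100 higher (15.3%) and 92 lower (14.1%) of 654, beside 15.7% and 15.3% of the genes of the other autosomes. In ES cells they were 138 higher (21.1%) and 75 lower (11.5%), beside 15.3% and 16.1%.

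Between dedifferentiated and ES cells, 29 transcript clusters were called lower in the dedifferentiated cells (3.9%) and 7 higher (0.941%), against 0.537% and 1.11% of all rows tested. No other autosome had more than 1.22% called lower, the value of chromosome 6. With any size, 248 were lower (33.3%) and 106 higher (14.2%). On the other autosomes, under the same level cutoff, 14.7% were lower and 19.4% higher. Over all rows, dim ones included, the shares were 9.72% and 11%. The highest share lower on another autosome was 18.7% (chromosome 12). The median difference was -0.12, where the other autosomes ran from -0.02 (chromosome 9) to 0.10 (chromosome 8). The comparisons share arrays: the same ES arrays enter the ES minus fibroblast and the dedifferentiated minus ES values, and these counts were known when chromosome 4 was chosen. They are a description.

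Along the chromosome, the lower values of the dedifferentiated cells against ES cells lay mostly in a continuous stretch. How sharp its ends are was not tested, since the split described next allows only abrupt ends. A split with 2 breakpoints, fitted by least squares to the differences clipped at 1.5 log2 units with at least 10 genes per segment, placed the stretch from Dcaf12, gene number 80 of 653, to Foxj3, number 347. It held 268 genes. The difference was 0.10 at Ubap2, the gene before it, -0.47 at Dcaf12, -0.23 at Foxj3 and 0.17 at Scmh1, the gene after it. Since these differences chose the stretch, its values in this contrast are given with no test over its genes.

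**Figure D1:**
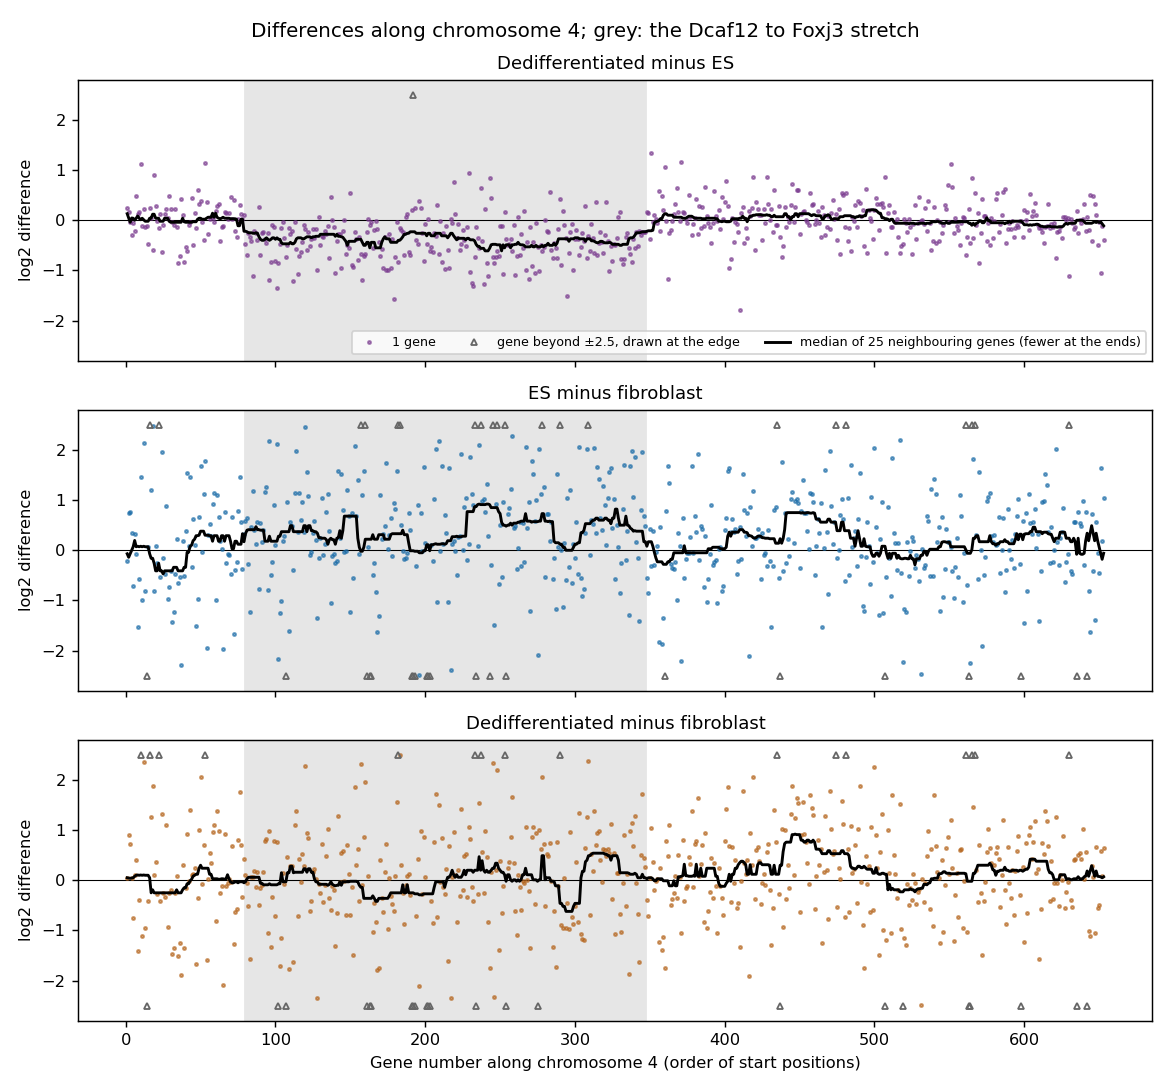
Log2 differences between group means for the 653 placed member genes in order along chromosome 4 (x axis: gene number; y axis: log2 difference), with each gene as a point, genes beyond 2.5 log2 units as open triangles at the edge, and the running median of 25 genes as a line. In the upper panel the line drops below 0 at the grey stretch from gene 80 to gene 347 and returns to about 0 after it; in the ES minus fibroblast panel the scatter is wider and the line is mostly above 0 there.

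In the stretch the median dedifferentiated minus ES difference was -0.39 (middle 50% of genes from -0.70 to -0.17), and 232 of 268 genes (86.6%) were below 0. In the rest of the chromosome the median was 0.01 (-0.18 to 0.23), and 191 of 385 genes (49.6%) were below 0. The 79 genes before the stretch had a median of 0.04 and the 306 after it -0.01, so both flanks sat near the other autosomes. With any size 160 genes of the stretch were lower (59.7%), against 66 (17.1%) outside it and 15.2% of genes of the other autosomes. Over all rows tested, dim ones included, 9.72% were. Of the 26 chromosome 4 genes called lower at 1 log2 unit, 22 lay in the stretch. On 186 of its 268 genes (69.4%) all 3 dedifferentiated arrays were below all 3 ES arrays, and on 14 (5.22%) all were above. Outside the stretch these shares were 24.9% and 28.3%, and over 8939 genes of the other autosomes 21.9% and 28.5%.

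Against fibroblasts, the genes of the stretch lay higher in ES cells and near 0 in the dedifferentiated cells. The median ES minus fibroblast difference was 0.40 in the stretch, with 177 of 268 genes (66%) above 0, and 0.14 in the rest. In the stretch 76 genes were called higher (28.4%) and 34 lower (12.7%), against 62 (16.1%) and 41 (10.6%) of the 385 genes outside. Over genes of the other autosomes these shares were 15.3% and 16.1%. The median dedifferentiated minus fibroblast difference was 0.04 in the stretch, with 35 called higher (13.1%) and 44 lower (16.4%), and 0.11 outside, with 65 (16.9%) and 48 (12.5%). These shares lay near the 15.7% and 15.3% of genes of the other autosomes. When breakpoints were fitted to those contrasts they did not fall at the same genes: the ES minus fibroblast differences gave 19 genes from Gpbp1l1 to Dmap1 (median 1.02, against 0.20 elsewhere), and the dedifferentiated minus fibroblast differences gave 47 genes from Snora16a to Aunip, outside the stretch (0.70 against 0.04). Without clipping, the ES minus fibroblast differences gave 13 other genes, from Tnfsf15 to Nfib (-2.48 against 0.24), so that split depended on the clipping. The ends of the stretch therefore rest on the dedifferentiated minus ES contrast.

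The ends moved little with the arrays used. Leaving out any dedifferentiated or ES array gave Dcaf12 as the first gene and Ppih, Ppcs or Foxj3 as the last, with 266 to 268 genes. With ends taken from the arrays numbered otherwise, the left-out pair numbered 1 had a median of -0.38 inside and 0.05 outside, with 85.1% of the inside genes below 0. The left-out pairs numbered 2 and 3 had -0.43 inside and 0.00 outside each, with 82.4% and 83.5% below 0. The left-out arrays may be technical copies of the others, and chromosome 4 was chosen with all arrays known. These values are therefore a description and no independent test of the stretch.

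Windows of 25 neighbouring genes gave 26 values on chromosome 4 and 357 on the other autosomes. On the other autosomes the window medians of the dedifferentiated minus ES difference ran from -0.21 (chromosome 9) to 0.33 (chromosome 10). On chromosome 4, 11 windows were below all of these, they followed each other as the windows numbered 4 to 14, and their medians ran from -0.56 to -0.26. In the window numbered 5 all 25 genes were below 0. The longest unbroken runs of genes below 0 were 39 genes from Dnajb5 to Tdrd7, 24 from Svep1 to Rgs3 and 17 from St3gal3 to Foxj3, all within the stretch. The split applied to each other autosome gave inner segments whose medians differed from their flanks by -0.37 (11 genes of chromosome 14) to 0.52 (15 genes of chromosome 17). The segment on chromosome 4 differed by -0.40 over 268 genes, and the longest inner segment elsewhere, 283 genes of chromosome 5, differed by -0.10.

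**Figure D2:**
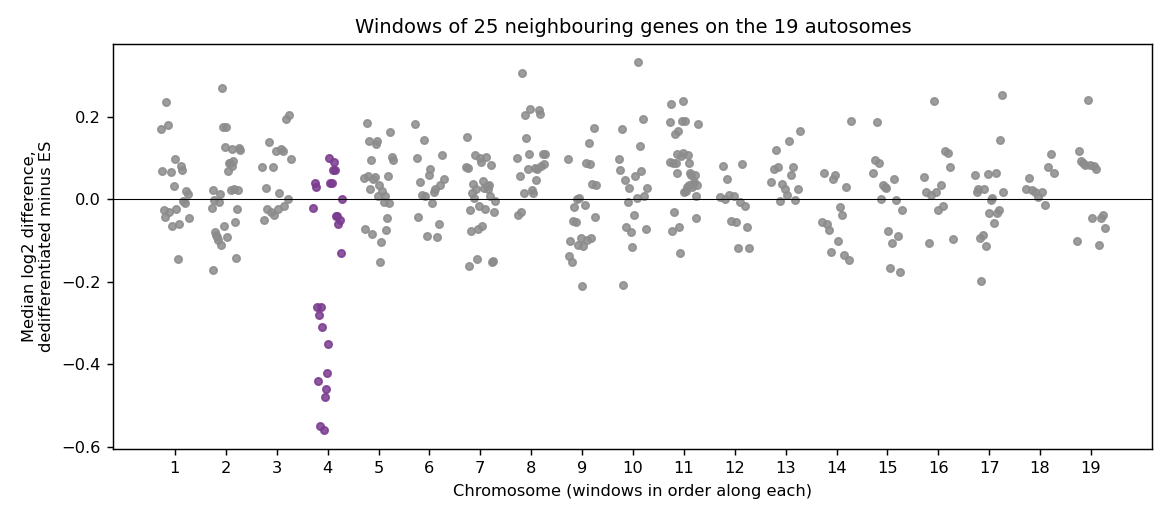
Median dedifferentiated minus ES difference (y axis, log2) in each window of 25 neighbouring member genes, in order along the 19 autosomes (x axis), with chromosome 4 in purple and the others in grey. The 11 purple points between -0.56 and -0.26 lie below all 357 grey points, whose lowest value is -0.21.

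Array by array, the stretch separated the ES arrays from the other 6. Each gene was centred on its mean over the 9 arrays, and the median over the genes of the stretch was taken minus the same median over the other autosomes, so the 9 values are relative to each other. They were -0.12, -0.12 and -0.10 on the fibroblast arrays, -0.11, -0.12 and -0.11 on the dedifferentiated arrays, and 0.26, 0.27 and 0.28 on the ES arrays. The fibroblast and dedifferentiated arrays overlapped, and all ES arrays were above them. For the genes before the stretch the values ran from -0.03 to 0.06 and the 3 groups overlapped. After it, the fibroblast arrays (-0.05 to -0.03) lay just below the others (-0.01 to 0.07), and the dedifferentiated and ES arrays overlapped. With 3 arrays against 3, no two-sided permutation p under 0.1 can be had, and the stretch was chosen on these arrays, so none is given.

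**Figure D3:**
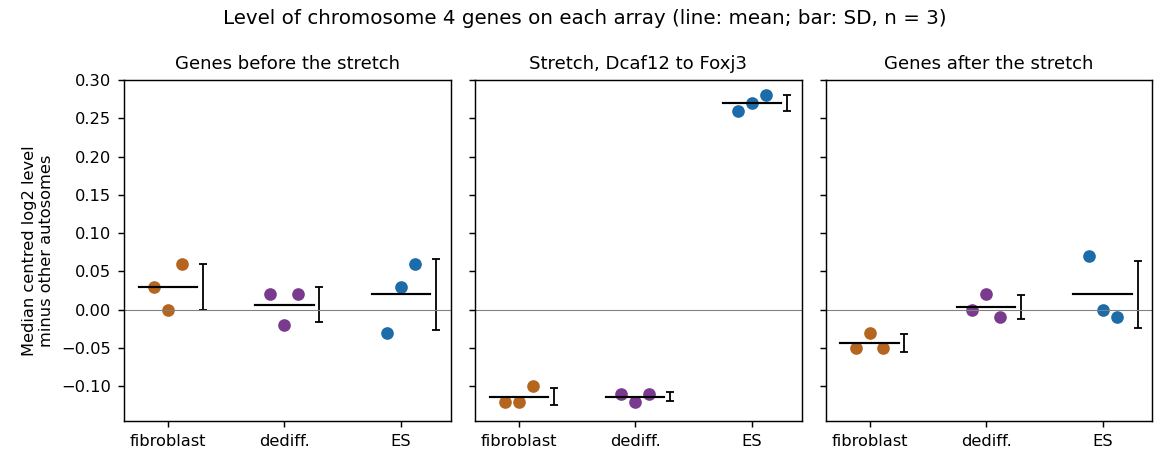
Median centred log2 level of the chromosome 4 genes on each array minus that of the other autosomes (y axis), for the genes before, in and after the stretch (panels), with 1 point per array, the group mean as a line and the SD over 3 arrays as a bar. In the middle panel the 3 ES points lie between 0.26 and 0.28 and the 6 others between -0.12 and -0.10, while in the outer panels all points lie between -0.05 and 0.07.

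The size of the difference depended on how bright the genes were. For genes with a mean log2 level from 7 to 9, the median dedifferentiated minus ES difference was -0.45 in the stretch (122 genes, 91.8% below 0) and 0.03 in the rest. At 9 and above it was -0.37 in the stretch (33 genes, 97% below 0) and 0.10 in the rest, and from 5.42 to 7 it was -0.33 and -0.06. Below the cutoff, from 4 to 5.42, it was -0.12 and -0.02, and under 4 it was -0.02 in both. Rows this dim lie near the floor of the array. Of the 282 rows of the stretch below the cutoff, 65.6% were below 0, against 56.8% of 285 dim rows in the rest of the chromosome and 52.3% of 9762 on the other autosomes, and 10.3% were lower with any size, against 3.3% on the other autosomes.

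**Figure D4:**
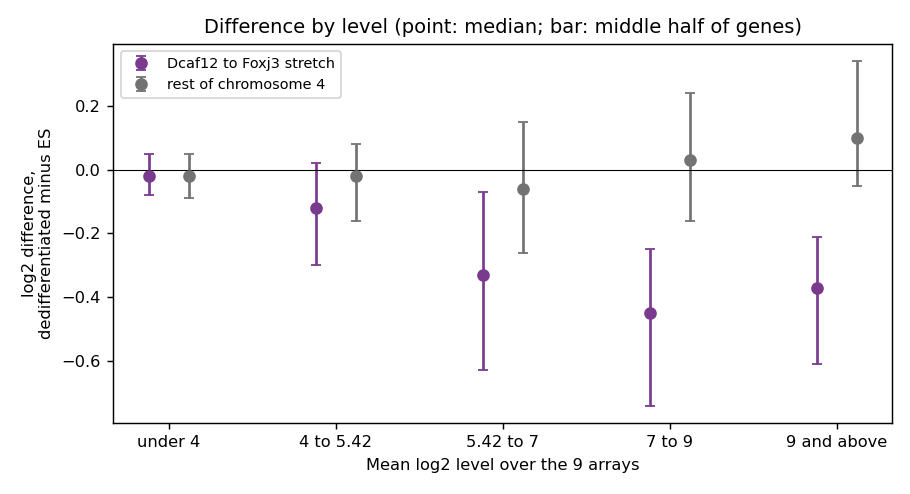
Dedifferentiated minus ES difference (y axis, log2) by mean log2 level of the gene over the 9 arrays (x axis), for the stretch (purple) and the rest of chromosome 4 (grey), with the median as a point and the middle 50% of genes as a bar. The purple medians fall from -0.02 in the dimmest class to -0.45 at levels from 7 to 9, and the grey medians stay between -0.06 and 0.10.

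Genes with no large difference of their own also lay below 0 in the stretch. The 134 genes of the stretch called in none of the 3 comparisons had a median dedifferentiated minus ES difference of -0.28, with 84.3% below 0, and a median ES minus fibroblast difference of 0.24. The 254 such genes in the rest of the chromosome had 0.00 and 0.07, and 5619 on the other autosomes 0.01 and 0.08. Grouped by their ES minus fibroblast call, the genes of the stretch called higher in ES cells had a median dedifferentiated minus ES difference of -0.62 (76 genes, 96.1% below 0). Those called lower had -0.16 (34 genes, 67.6%) and those not called -0.35 (158 genes, 86.1%). In the rest of the chromosome the same 3 groups had -0.13, 0.13 and 0.01. The ES arrays enter both sides of this grouping, so it is a description of how the values lie.

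The 22 genes of the stretch called lower in dedifferentiated than in ES cells were of many kinds, from metal transport to mitosis. Slc31a1, the copper importer of the plasma membrane, was at 8.20, 8.08 and 8.20 on the fibroblast arrays, 7.62, 7.46 and 7.56 on the dedifferentiated arrays and 8.71, 9.35 and 9.27 on the ES arrays. The 3 groups did not overlap, and the dedifferentiated arrays were the lowest. It was 2.95-fold lower in dedifferentiated than in ES cells (log2 difference -1.56, 95% interval -1.88 to -1.25, adjusted p = 4.3e-05). Stil read 6.70, 6.62 and 6.72 in fibroblasts, 6.23, 6.20 and 6.24 in dedifferentiated cells and 7.45, 7.75 and 8.0 in ES cells. Again every dedifferentiated array was below every fibroblast array, and these below every ES array (dedifferentiated minus ES -1.51, -1.77 to -1.25, adjusted p = 1.6e-05).

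Jun, a subunit of the AP-1 transcription factor, was at 7.64, 7.66 and 7.91 in fibroblasts, 7.60, 7.58 and 7.63 in dedifferentiated cells and 8.96, 8.70 and 8.93 in ES cells. Fibroblasts and dedifferentiated cells did not differ beyond the threshold (-0.13, adjusted p = 0.32), while ES cells were 2.4-fold above the dedifferentiated cells (log2 difference of dedifferentiated minus ES -1.26, adjusted p = 1.5e-05). Jun lay between Mysm1, a histone deubiquitinase, and Fggy, a carbohydrate kinase, which were also called lower (-1.03 and -1.32), and these 3 neighbours were the longest run of called genes in this contrast. Fggy was read by 5 transcript clusters, of which 4 were called, with differences from -1.51 to -0.53. Atg4c, an autophagy protease, differed by -1.28, and Gne, an enzyme of sialic acid synthesis, by -1.22. Their mean ES levels were 7.21 and 7.88, so both were of middle brightness.

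**Figure D5:**
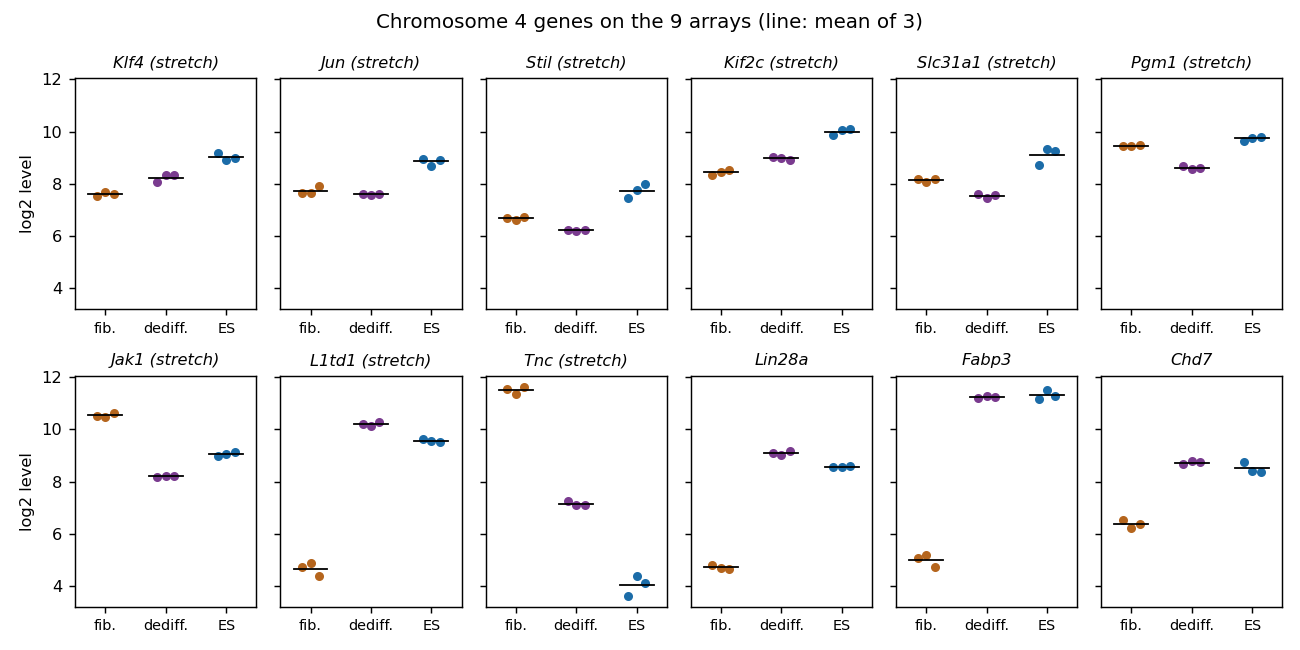
Log2 level (y axis) on the 9 arrays for 12 chromosome 4 genes, with 1 point per array and the group mean as a line; the first 9 panels are genes of the stretch. In Jun, Stil, Kif2c, Klf4, Slc31a1 and Pgm1 the 3 ES points lie above the 6 others, in Tnc they lie lowest, and in L1td1, Lin28a, Fabp3 and Chd7 the dedifferentiated and ES points all lie above the fibroblast points, and in Jak1 they lie below them.

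The shares of all member genes of the other autosomes called higher and lower, 15.7% and 15.3% in dedifferentiated and 15.3% and 16.1% in ES cells against fibroblasts, stand beside the counts of each functional list below. Genes of pluripotency and the early embryo, 11 of which were measured above the cutoff, included 4 called higher and 3 lower in dedifferentiated cells than in fibroblasts, and 5 and 3 in ES cells. None was called between dedifferentiated and ES cells by limma, where 3 were higher and 3 lower at an unadjusted p under 0.05. The 5 in the stretch had a median dedifferentiated minus ES difference of -0.14, with 3 below 0, and the 6 outside 0.17. Over all genes of those regions the medians were -0.39 (86.6% below 0) and 0.01. L1td1 was at 4.72, 4.89 and 4.38 in fibroblasts, 10.20, 10.13 and 10.27 in dedifferentiated cells and 9.63, 9.55 and 9.52 in ES cells. The dedifferentiated arrays were the highest, with no overlap (dedifferentiated minus fibroblast 5.54, adjusted p = 1.5e-11; dedifferentiated minus ES 0.64, adjusted p = 0.0027), so this gene of the stretch went against its neighbours. Lin28a, outside the stretch, was at 4.65 to 4.81 in fibroblasts, 9.03 to 9.17 in dedifferentiated and 8.55 to 8.58 in ES cells (4.38 and 3.84 above fibroblasts).

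Klf4, inside the stretch, read 7.55, 7.69 and 7.62 in fibroblasts, 8.08, 8.32 and 8.32 in dedifferentiated cells and 9.19, 8.90 and 9.0 in ES cells. The groups did not overlap, and the dedifferentiated cells lay between the others. ES cells were called above fibroblasts (1.41, adjusted p = 2.5e-07), while the dedifferentiated cells were 0.62 above fibroblasts (adjusted p = 0.00024) and 0.79 below ES cells (-0.79, -1.01 to -0.57, adjusted p = 0.00028), both short of 1 log2 unit. Foxd3, also in the stretch, was at 5.18 to 5.68, 6.36 to 6.50 and 6.13 to 6.26 in the same order. It was 0.99 above fibroblasts in dedifferentiated cells (adjusted p = 2e-05) and 0.77 in ES cells. Like L1td1 it lay higher in dedifferentiated than in ES cells with no overlap, but by only 0.22 (adjusted p = 0.24). Id3, an inhibitor of basic helix-loop-helix factors outside the stretch, was lower in both (-2.81 and -3.68), and 0.87 higher in dedifferentiated than in ES cells (adjusted p = 8.8e-05).

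Of 22 measured genes of matrix, collagen processing and mesenchyme, against fibroblasts limma called 11 lower and none higher in dedifferentiated cells, with 2 higher at an unadjusted p under 0.05. In ES cells 12 were called lower and 2 higher, the transmembrane protein gene Tmeff1 (1.51) and Agrn, agrin of the basement membrane (1.04). The 8 in the stretch had a median dedifferentiated minus ES difference of -0.11, with 5 below 0, and the 14 outside -0.04. Over all genes of those regions the medians were -0.39 (86.6% below 0) and 0.01, so this list showed little of the shift. Tnc was at 11.55, 11.36 and 11.63 in fibroblasts, 7.24, 7.12 and 7.09 in dedifferentiated cells and 3.61, 4.38 and 4.13 in ES cells. The dedifferentiated arrays lay between the other groups with no overlap, and Tnc was the only gene of the stretch called higher in dedifferentiated than in ES cells (8.64-fold, log2 difference 3.11, 2.75 to 3.47, adjusted p = 1.6e-06). Svep1, a matrix protein with sushi domains, was at 8.48, 8.82 and 8.93 in fibroblasts, 4.23, 4.08 and 4.24 in dedifferentiated cells and 4.44, 4.17 and 4.22 in ES cells. The dedifferentiated and ES arrays overlapped (-0.10, adjusted p = 0.68), and both groups were called lower than fibroblasts (-4.56 and -4.46). Pappa, a protease of insulin-like growth factor binding proteins, was lower by a similar amount (-4.99 and -5.23), as was Sdc3, a syndecan after the stretch (-4.54 and -4.20). Gdf6, a BMP-family ligand before the stretch, had the largest dedifferentiated minus fibroblast difference of the chromosome, from 10.81 to 11.18 in fibroblasts to 3.71 to 3.99 in dedifferentiated and 3.78 to 4.13 in ES cells (-7.10 and -6.98).

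Of 30 measured genes of the cell cycle, replication and mitosis, against fibroblasts limma called 11 higher in dedifferentiated cells and 15 in ES cells, and none lower in either, with 5 and 4 lower at an unadjusted p under 0.05. Against ES cells, the 14 in the stretch had a median dedifferentiated minus ES difference of -0.61, with 13 below 0, and the 16 outside it 0.09, beside medians of -0.39 and 0.01 for all genes of those regions. Kif2c, a kinesin that shortens microtubules in mitosis, was at 8.35, 8.45 and 8.52 in fibroblasts, 9.04, 9.0 and 8.92 in dedifferentiated cells and 9.85, 10.04 and 10.11 in ES cells. The groups followed in that order with no overlap (dedifferentiated minus ES -1.01, -1.21 to -0.82, adjusted p = 3.4e-05). Cdc20, the activator of the anaphase-promoting complex, had the same order, from 7.67 to 7.79 over 8.68 to 8.75 to 9.37 to 9.39. It was 1.67 above fibroblasts in ES cells and 0.99 in dedifferentiated cells, just under 1 log2 unit. Orc1, of the origin recognition complex, and Nasp, a histone chaperone, were called higher than fibroblasts in both (2.06 and 2.67 for Orc1, 2.38 and 2.70 for Nasp). The cell cycle inhibitors Cdkn2a and Cdkn2b, neighbours in the stretch, were not called: Cdkn2a was at 5.73 to 6.01, 6.01 to 6.15 and 6.05 to 6.21, and Cdkn2b at 6.61 to 6.63, 6.12 to 6.49 and 6.82 to 7.01.

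Among 30 chromatin and transcription regulators, 6 were called higher and 4 lower than fibroblasts in dedifferentiated cells and 7 and 4 in ES cells, and their medians against ES cells were -0.62 for the 8 in the stretch, all below 0, and 0.15 for the 22 outside. Over all genes of those regions the medians were -0.39 (86.6% below 0) and 0.01. Chd7 was at 6.21 to 6.52 in fibroblasts, 8.67 to 8.77 in dedifferentiated cells and 8.38 to 8.74 in ES cells on its brightest transcript cluster, and all 28 of its clusters were called higher in both groups (1.64 to 3.94 and 1.30 to 3.68). Some subunits of the NuRD and BAF remodelling complexes lie after the stretch, whose end was chosen on the dedifferentiated minus ES contrast. Arid1a, of BAF, was 1.58 above fibroblasts in dedifferentiated and 1.03 in ES cells, and 0.55 higher in dedifferentiated than in ES cells (adjusted p = 0.0011). Kdm1a, a histone demethylase, was called higher in both (1.69 and 1.83). Hdac1, a histone deacetylase, and Rbbp4, a histone-binding subunit, were higher by less than 1 log2 unit (0.67 and 0.43 for Hdac1, 0.94 and 0.86 for Rbbp4). The dedifferentiated minus ES differences were -0.14 for Kdm1a, 0.23 for Hdac1 and 0.08 for Rbbp4, none of them called. The nuclear factor I genes Nfia and Nfib, both in the stretch, were called lower in dedifferentiated (-4.24 and -4.36) and ES cells (-4.10 and -3.75) than in fibroblasts. Lurap1l, a neighbour of Nfib, was lower by a similar amount (-4.47 and -4.00).

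Genes of translation and RNA processing, 32 in all, had 5 (15.6%) called higher and 1 (3.12%) lower than fibroblasts in dedifferentiated cells and 7 (21.9%) and 1 (3.12%) in ES cells, where 15.7% and 15.3%, and 15.3% and 16.1%, of the genes of the other autosomes were called. Those 9 in the stretch had a median dedifferentiated minus ES difference of -0.32, with 8 below 0, and the 23 outside 0.13. Over all genes of those regions the medians were -0.39 (86.6% below 0) and 0.01. None of the 32 was called in that contrast by limma, where 11 were higher and 8 lower at an unadjusted p under 0.05. Eif2b3, a subunit of the exchange factor of translation initiation in the stretch, was at a mean of 8.84, 9.46 and 10.12 in fibroblasts, dedifferentiated and ES cells. Prpf4, a splicing factor also in the stretch, did not follow it, at 7.84, 9.38 and 9.42 (dedifferentiated minus ES -0.03, adjusted p = 0.89). Sfpq, a paraspeckle and splicing factor outside it, was 1.42 (dedifferentiated) and 0.65 (ES) above fibroblasts, and 0.78 higher in dedifferentiated than in ES cells (adjusted p = 3e-05). Eif4g3, a translation initiation scaffold, was called lower in both (-1.16 and -1.18).

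All 19 metabolic and mitochondrial genes of the stretch had dedifferentiated means below the ES means, with a median difference of -0.44, against -0.01 for the 16 outside. Over all genes of the stretch, which was chosen on this contrast, the median was -0.39 with 86.6% below 0, and outside it 0.01. Of the 35 metabolic and mitochondrial genes, 2 (5.71%) were called higher and 7 (20%) lower than fibroblasts in dedifferentiated cells and 4 (11.4%) and 6 (17.1%) in ES cells, beside the 15.7% and 15.3%, and 15.3% and 16.1%, of the other autosomes. Pgm1, the phosphoglucomutase of glycogen metabolism, was at 9.43, 9.44 and 9.50 in fibroblasts, 8.68, 8.58 and 8.60 in dedifferentiated cells and 9.65, 9.76 and 9.81 in ES cells. Fibroblast and ES arrays lay close to each other and the dedifferentiated arrays below both (dedifferentiated minus ES -1.12, -1.28 to -0.96, adjusted p = 5.6e-06). Cpt2, which brings long fatty acids into the mitochondrial matrix, was at 7.21 to 7.41, 7.10 to 7.17 and 8.22 to 8.43 (-1.17, adjusted p = 1e-05). Slc2a1, the glucose transporter, was at 10.29 to 10.44 in fibroblasts, 11.67 to 11.68 in dedifferentiated cells and 12.17 to 12.37 in ES cells, with both called higher than fibroblasts (1.29 and 1.85). Scp2, a sterol carrier protein, was at a mean of 6.19, 7.06 and 7.96, and Gpx7, an endoplasmic reticulum peroxidase, at 8.31, 5.69 and 6.22. Outside the stretch, Fabp3, the heart-type fatty acid binding protein, was at 4.72 to 5.20, 11.20 to 11.27 and 11.15 to 11.51 and was the largest rise of the chromosome (6.23 and 6.32), and H6pd, an endoplasmic reticulum dehydrogenase, was lower (-3.50 and -3.49).

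Of 22 signalling genes, limma called 3 higher and 8 lower in dedifferentiated cells than in fibroblasts, and 2 and 7 in ES cells. None was called between dedifferentiated and ES cells, where 6 were higher and 6 lower at an unadjusted p under 0.05. The 10 in the stretch had a median dedifferentiated minus ES difference of -0.46, with 7 below 0, and the 12 outside 0.11. Over all genes of those regions the medians were -0.39 (86.6% below 0) and 0.01. Jak1, the kinase of cytokine receptors, was at 10.49, 10.46 and 10.63 in fibroblasts, 8.18, 8.20 and 8.20 in dedifferentiated cells and 8.97, 9.04 and 9.14 in ES cells. Both were called lower than fibroblasts (-2.33 and -1.48), with the dedifferentiated arrays the lowest (-0.86 against ES cells, adjusted p = 4e-05). The receptor genes Tek, Ror1 and Tgfbr1 of the stretch went the other way against ES cells, by 0.94 for Tek, the angiopoietin receptor, 0.85 for Ror1, a Wnt receptor, and 0.46 for Tgfbr1, a TGF-beta receptor. Tek was at 6.19 to 6.53 in fibroblasts, 7.41 to 7.58 in dedifferentiated cells and 6.30 to 6.76 in ES cells, and was called higher than fibroblasts in dedifferentiated cells (1.06, adjusted p = 2.4e-05), with 0.12 in ES cells. Lpar1, a lysophosphatidic acid receptor, was lower in both groups than in fibroblasts (-2.79 and -2.76), and Ptpn3, a tyrosine phosphatase, was higher on all 12 of its transcript clusters (1.33 to 2.73 and 1.66 to 3.39).

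Of 18 genes of the stress, interferon and p53 responses, 2 (11.1%) were called higher and 3 (16.7%) lower than fibroblasts in dedifferentiated cells and 3 (16.7%) and 2 (11.1%) in ES cells, which is near the shares of the other autosomes. The 9 in the stretch had a median dedifferentiated minus ES difference of -0.25, with 7 below 0, and the 9 outside 0.01. Over all genes of those regions the medians were -0.39 (86.6% below 0) and 0.01. The p53 targets Trp53inp1 and Sesn2, both outside the stretch, were called higher in dedifferentiated (1.87 and 1.56) and ES cells (2.47 and 1.40). Tnfrsf1b, a receptor of tumour necrosis factor (-2.69 and -2.25), and Errfi1, an inhibitor of EGF receptor kinases (-1.22 and -1.44), were called lower in both. Tmem38b, a cation channel of the endoplasmic reticulum in the stretch, was called lower than fibroblasts in dedifferentiated cells (-1.49), and differed by -0.56 in ES cells and by -0.93 between dedifferentiated and ES cells. Txn1, thioredoxin, a bright gene of the stretch, was at a mean of 11.79, 11.87 and 11.85 (dedifferentiated minus ES 0.03, adjusted p = 0.89).

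Outside the stretch, calls between dedifferentiated and ES cells went both ways, with 6 genes higher (1.56%) and 4 lower (1.04%) of 385. These shares lay near the 1.76% and 0.649% of genes of the other autosomes. Azin2, an antizyme inhibitor of polyamine metabolism, was at 7.28, 7.34 and 7.38 in fibroblasts, 5.97, 6.02 and 6.04 in dedifferentiated cells and 7.55, 7.83 and 8.01 in ES cells. It had the lowest value of the chromosome (-1.79, -2.02 to -1.56, adjusted p = 3.1e-06). Trit1, a tRNA-modifying enzyme, differed by -1.18. Spen, a transcriptional repressor, was at 7.72 to 7.78, 8.95 to 8.97 and 7.63 to 7.99 and was the reverse case (1.13, adjusted p = 2e-05). Rragd, a Rag GTPase of nutrient signalling (1.14), Car8, a carbonic anhydrase relative (1.12), Fhl3, a LIM-domain protein (1.16), and Mfsd2a, a lipid transporter (1.06), were also called higher. Nfyc, a subunit of the CCAAT-binding factor, read 1.34, and Prkcz, an atypical protein kinase C, read -1.11, but both clusters belong to the uncertain ones described next. Esrp1, an epithelial splicing regulator (4.41 and 4.57), Hook1, a microtubule-binding adaptor in the stretch (4.44 and 5.17), and the zinc finger genes Zfp980 (5.55 and 4.70) and Zfp979 (5.0 and 4.46) were among the genes most above fibroblasts in dedifferentiated and ES cells. The zinc finger genes belong to a family of near-identical copies, so their signal may be shared.

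Not all transcript clusters are equally certain in place. On 35 of the 744, for 23 genes, the neighbours in probe-set number order lay on another chromosome, so the locus they measure is not known; 19 of them are in the stretch, and 7 of the 8 clusters of the ribosomal protein gene Rps6 are among them. Without them the split gave the same ends, with 267 genes and medians of -0.39 inside and 0.00 outside. Of the 654 genes, 34 had several clusters. Windows over rows rather than genes put 8 of 30 chromosome 4 windows below all 389 windows of the other autosomes, and the 28 Chd7 clusters lie in the first 2 windows of the chromosome, where the dedifferentiated minus fibroblast medians were 2.07 and 1.98. Eno1, a glycolytic gene of the chromosome, lacked a row naming 1 symbol and was not analysed here.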

How the data were processed

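RNA of 9 samples was read on Affymetrix Mouse Gene ST arrays. The deposited values are log2 levels, made by the authors with RMA in Affymetrix Expression Console 1.1, per the submitters' processing notes; RMA corrects background, sets the arrays to 1 distribution and summarises probes, so array-wide shifts are removed. Array medians lay between 4.65 and 4.86, and arrays of 1 group correlated at 0.988 or more. Symbols came from the platform annotation, which named several genes for 1621 rows and did not list 12147. It gave no positions here, so chromosome and order came from the RefSeq gene table (GRCm38.p6) through Entrez IDs, which matched 21698 of 21789 rows. The build of the array design is not given in the sources used here.

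All rows with 1 symbol were fitted with limma 3.58.1 in R 4.3.3 (lmFit and eBayes, no covariates, 3 contrasts over all 9 arrays) with Benjamini-Hochberg adjustment over all of them. Gene counts use the brightest row of a gene. The steps were tested on simulated data. Named genes were the 6 largest called rises and falls per comparison, the 2 largest of each functional list, the longest runs, genes nearest the cutoff and a set of well-known genes; the stretch's other named genes were chosen after their values were seen. The members, lists and rules were chosen with earlier results of these data known. Alternatives covered filters, fold, normalization, array weights, window size, the replicate block and each array left out. Windows by distance were not used.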

Additional observations from a re-analysis of the deposited data

How the results depend on the processing

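The main values were 149 higher and 95 lower in dedifferentiated cells than in fibroblasts, 184 and 77 in ES cells than in fibroblasts, and 7 and 29 in dedifferentiated than in ES cells. The shifts of chromosome 4 against the other autosomes were 0.03, 0.23 and -0.15 in that order, the stretch minus the rest was -0.42 over rows, and 8 windows lay below all others. Only the smallest shift, dedifferentiated minus fibroblast, changed sign: it was -0.01 with 1 row per gene and -0.05 without members called in any comparison, and 0.00 without the Chd7 rows, 0.06 with a group mean of at least 6 and 0.16 with means in place of medians. The ES minus fibroblast shift was 0.09 with no level filter, 0.27 with a group mean of at least 6, 0.26 above the upper quartile of level, 0.15 with 1 row per gene, 0.20 with array weights, 0.34 with means, 0.05 without called members and 0.18 without Chd7. The dedifferentiated minus ES shift was -0.07 with no level filter, -0.18 above the upper quartile and with means, and -0.10 without called members. The stretch minus the rest was -0.44 after renewed quantile normalization and with array weights, -0.18 with no level filter, -0.45 with a group mean of at least 6 and with means, -0.50 above the upper quartile, -0.40 with 1 row per gene and -0.28 without called members; among alternatives chosen after seeing the data, it was -0.45 without rows of uncertain locus and -0.40 without Chd7. Windows below all others numbered 3 with no level filter, 5 above the upper quartile, 5 with windows of 50 and 5 without rows of uncertain locus. Calls above the upper quartile, where fewer rows were read, were 68 and 41, 76 and 30, and 3 and 14, and at 1.5-fold 250 and 153, 290 and 116, and 32 and 129. The causes of the other moves were not tested.

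Leaving out each array in turn gave 145 to 156 higher and 92 to 97 lower for dedifferentiated against fibroblast (shift 0.03 to 0.05), 178 to 189 and 73 to 82 for ES against fibroblast (0.20 to 0.25), and 6 to 8 higher and 21 to 42 lower for dedifferentiated against ES (-0.16 to -0.13), with the stretch at -0.47 to -0.42 and 8 to 9 windows. The 42 came without ES replicate 1 and the 21 without ES replicate 3. Same-numbered arrays did not pair: their deviations correlated at -0.22 to 0.26 and 3 of 9 pairs were over 0.1. With the replicate block, the counts and values were those of the fit without it, 149, 95, 184, 77, 7 and 29, 0.03, 0.23 and -0.15, -0.42 and 8 windows. Of 4944 values of 66 named genes under the alternatives, 4901 stayed called or stayed uncalled, 23 lost the call and 20 gained it. Of the values called in the main fit, 0 changed sign. The sign of uncalled values was not followed. Differences were smaller among rows under the level cutoff; the cause was not tested.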
